A study of Drosophila melanogaster with 3 samples.

Results

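The elav family of Drosophila melanogaster comprises 3 genes, elav, fne (found in neurons) and Rbp9 (RNA-binding protein 9), out of 13945 protein-coding genes on the 6 main chromosome arms. The genes were chosen by symbol in the annotation, after the position and the signal of the Neu2 calls around them had been seen, so the calls near them are described here and none is tested. A call was assigned to a gene when its summit lay in the gene body or within 5 kb of either end, and a call could be assigned to several genes. Chromatin immunoprecipitation followed by sequencing was carried out on whole embryos of mixed sex aged 2 to 4 h. All of them came from a transgenic fly line that stably carries Neu2, a ZAD zinc-finger protein, with GFP at its C-terminus. The precipitation was done with an antibody against GFP, on chromatin sonicated to 200 to 800 bp. The promoter that drives the fusion and the state of the endogenous Neu2 gene are not given in the sources used here. There were 3 libraries, labelled as biological replicates of a single group, and the control that calls were made against was not analysed here.

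ELAV/Hu proteins are RNA-binding proteins with RNA recognition motifs that bind U-rich and AU-rich stretches in transcripts. In flies, elav is expressed in neurons from their birth and is the usual marker of postmitotic neurons, where its protein regulates alternative splicing and the choice of polyadenylation sites. The protein of fne is a close relative that can take over part of this work, and Rbp9 acts in neurons of the nervous system and in the female germ line. Embryos of the age sampled here pass from the blastoderm through gastrulation into germ-band extension, before differentiated neurons appear.

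The authors' optimal list, which holds the peaks past their irreproducible discovery rate (IDR) threshold, had 1471 peaks, and 2 of them lay at elav and none at fne or Rbp9. A longer relaxed list of the pooled replicates, made as input to the IDR procedure from peaks and background together, had 30000 calls, of which 24 lay at the family (9 at elav, 5 at fne and 10 at Rbp9). The sequences below surround the summits of the optimal elav peaks and of 3 of the strongest relaxed calls, since the results turn on these positions. The Rbp9 window shown is that of its call of second highest signal, which lies outside the gene. They are read from the RefSeq Release 6 genome (dm6), 5′ to 3′ along the strand of the member gene. Capitals mark the matches to a set of short words that is described further on.

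elav, optimal call nearest the promoter, chrX:523417-523617, minus strand: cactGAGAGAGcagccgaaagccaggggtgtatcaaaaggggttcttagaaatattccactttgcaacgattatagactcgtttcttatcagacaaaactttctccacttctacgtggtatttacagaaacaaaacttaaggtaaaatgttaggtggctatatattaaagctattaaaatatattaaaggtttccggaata

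elav, upstream optimal call, chrX:526546-526746, minus strand: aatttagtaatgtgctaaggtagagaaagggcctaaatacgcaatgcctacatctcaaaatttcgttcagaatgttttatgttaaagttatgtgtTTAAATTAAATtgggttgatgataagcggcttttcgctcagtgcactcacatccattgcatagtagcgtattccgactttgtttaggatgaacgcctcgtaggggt

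elav, strongest relaxed call inside the gene, chrX:522565-522765, minus strand: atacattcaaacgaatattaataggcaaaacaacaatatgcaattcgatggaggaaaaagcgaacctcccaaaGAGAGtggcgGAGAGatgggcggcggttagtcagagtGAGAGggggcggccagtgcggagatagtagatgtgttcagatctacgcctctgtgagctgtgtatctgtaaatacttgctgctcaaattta

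fne, strongest relaxed call, chrX:12940058-12940258, plus strand: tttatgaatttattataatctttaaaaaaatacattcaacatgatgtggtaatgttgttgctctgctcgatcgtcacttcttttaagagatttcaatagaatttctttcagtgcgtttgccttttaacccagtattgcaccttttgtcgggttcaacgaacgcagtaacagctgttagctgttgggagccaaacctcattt

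Rbp9, relaxed call at the promoter of the neighbouring gene gammaTub23C, chr2L:2972720-2972890, plus strand: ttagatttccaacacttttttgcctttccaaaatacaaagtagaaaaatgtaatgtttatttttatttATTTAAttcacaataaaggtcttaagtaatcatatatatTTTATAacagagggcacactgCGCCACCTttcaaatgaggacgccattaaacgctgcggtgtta

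The gene elav (FBgn0260400) occupies chrX:509235-523226 on the minus strand, is 13992 bp long and has 4 annotated transcripts with 2 transcription start sites (TSSs), at 523226 and, 2941 bp further into the gene, at 520285. It overlaps arg, which encodes arginase, is transcribed from the opposite strand and spans chrX:509435-528028, over 13792 of its 13992 bp. It also shares its first TSS with the non-coding gene lncRNA:enrr. Chromatin immunoprecipitation carries no strand, so the calls here cannot be assigned to elav rather than to arg or to lncRNA:enrr.

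The stronger of the optimal peaks at elav, chrX:526426-526865 with its summit at 526646, was 3420 bp upstream of the first elav TSS in an intron of arg. Its pooled signal value, the authors' own measure of enrichment, was 207 and took rank 183 in the optimal list, where the signal ran from 88.6 to 998 with a median of 119. The matching calls of the single libraries had signals of 78.9 in replicate 1, 64.7 in replicate 2 and 56.7 in replicate 3. They took ranks 199, 324 and 163 among the 30000 calls of each list, and their summits were 31, 50 and 2 bp away from the pooled one. Since each list has its own scale, each replicate's signal was divided by its median at the optimal peaks (47.0, 47.8 and 33.1). The resulting relative signals were 1.68, 1.35 and 1.71, a mean of 1.58 ± 0.198 (SD, n = 3), so every replicate stood above its own median of the optimal peaks, with replicate 2 the lowest.

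This peak was not nearest to elav by TSS. The closest protein-coding TSS was that of CG4293, 3203 bp away on the side of its 3′ end, and the TSS of Appl, which encodes the fly homologue of the amyloid precursor protein and is a pan-neuronal gene, was 3855 bp away. The summit therefore fell in the windows of 4 protein-coding genes, Appl, CG4293, arg and elav.

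The weaker optimal peak, chrX:523297-523736 with its summit at 523517, was 291 bp upstream of the first elav TSS, again in an intron of arg, and the elav TSS was the closest of any protein-coding gene. Its pooled signal was 168, at rank 312. The replicate signals were 62.0 in replicate 1, 54.8 in replicate 2 and 44.9 in replicate 3, at ranks 390, 521 and 312. The replicate summits lay within 25 bp of the pooled summit. Relative signals were 1.32, 1.15 and 1.36, a mean of 1.27 ± 0.112 (SD, n = 3), and replicate 2 was again the lowest.

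The summits of these peaks were 3129 bp apart, and 400 of the 1471 optimal peaks (27.2%) had another optimal peak within 5 kb. The upstream peak exceeded the promoter-proximal one in each library, by a ratio of 1.27 in replicate 1, 1.18 in replicate 2 and 1.26 in replicate 3. The mean ratio was 1.24 ± 0.0503 (SD, n = 3), and the pooled ratio was 1.23. In each replicate both peaks belonged to the 1471 calls of highest signal, as many as the optimal list holds. The same held for 662 of all 30000 pooled calls, most of which lie below the optimal list. The share among the 1471 optimal peaks, the like set for these peaks, is not given here. Because the optimal list was made from the same libraries, this agreement between replicates is not independent of its making.

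**Figure D1:**
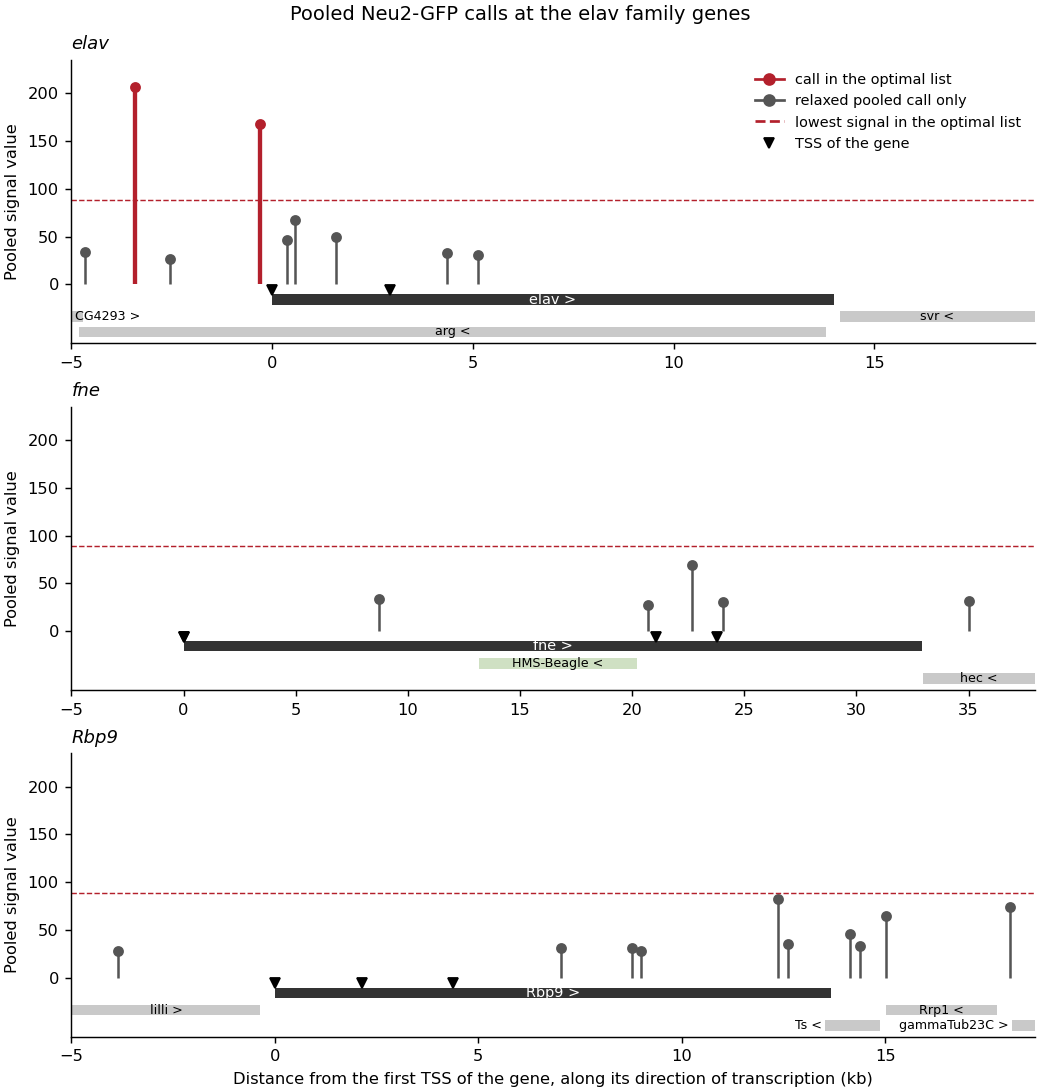
Signal value of the pooled calls (vertical axis, no unit) against the distance of their summits in kb from the first TSS of elav, fne and Rbp9, along the direction of transcription. Dark bars are the genes, grey bars their protein-coding neighbours and the green bar a transposable element, with arrows for the direction of transcription relative to the member. Only elav has calls above the lowest signal of the optimal list (88.6), at 3420 and 291 bp upstream of its first TSS.

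The other 7 pooled calls at elav stayed below the optimal list. The strongest, at 522665 in an elav intron 561 bp downstream of the first TSS, had a pooled signal of 67.3 (rank 2814 of 30000). Its replicate signals were 24.8, 35.0 and 10.9 in replicates 1, 2 and 3, and the mean relative signal was 0.529 ± 0.202 (SD, n = 3). The replicates were far apart here, with replicate 2 the highest and replicate 3 the lowest, and the ranks were 3041, 1900 and 24119. A call at 522864 (signal 46.5), 199 bp away, matched the same calls of replicates 2 and 3, so the pair cannot be read as separate replicated events. In the 5′ UTR between the TSSs a call at 521635 had a signal of 49.3 and matched replicates 2 and 3 only. The coding exon held calls at 518859 (32.9, matched in replicate 3 only) and 518096 (30.9, matched in all 3 replicates but at ranks 10282, 19021 and 15808). The other 2, at 527887 and 525778, lay upstream in arg with signals of 33.4 and 26.8. No call of any list lay within 500 bp of the second elav TSS: the nearest pooled call was 1350 bp upstream of it, and the nearest calls of the replicates were 2316, 560 and 1221 bp away.

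The gene fne (FBgn0086675) occupies chrX:12917477-12950417 on the plus strand, is 32941 bp long and has 11 transcripts from 4 TSSs. The first TSSs, at 12917477 and 12917484, are nearly the same, and the others lie 21040 and 23795 bp downstream. A transposable element of the HMS-Beagle family, 7057 bp long, sits in the gene upstream of these internal TSSs, and no pooled or replicate call had its summit inside it.

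The strongest pooled call at fne, chrX:12939938-12940377 with its summit at 12940158, was in an intron 1114 bp upstream of the most downstream TSS. It had a pooled signal of 69.0 at rank 2642, below the 88.6 that ends the optimal list. Its signals were 32.1 in replicate 1, 17.4 in replicate 2 and 18.7 in replicate 3, at ranks 1699, 13915 and 5092. Relative signals were 0.682, 0.363 and 0.567, a mean of 0.537 ± 0.161 (SD, n = 3), so that replicate 1 was the highest and all 3 were below the median of the optimal peaks. The summit of replicate 3 was 173 bp upstream of the pooled one, close to the 200 bp within which calls were matched.

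The remaining pooled calls at fne were weak. Those at the internal TSSs had signals of 27.5 (323 bp upstream of the TSS at 12938517) and 30.02 (248 bp downstream of the TSS at 12941272), the deep intronic call at 12926196 had 33.8, and the call in an intron of the neighbouring gene hec had 31.3. None of these 4 was matched in all 3 replicates. The pooled call nearest to the first fne TSS was 7104 bp upstream, outside the window, with a signal of 42.1. Weak calls of single replicates lay closer, 3771 bp upstream in replicate 1 (14.3, rank 14458) and 1928 bp upstream in replicate 3 (10.9, rank 24039), and neither was shared with another replicate. In replicate 2 the strongest call of the fne window was not the intronic one but a call in the 3′ UTR at 12947851 (signal 19.4, rank 10534). Replicate 1 had a call 25 bp from it (14.4, rank 14013), while the pooled list had none there.

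The gene Rbp9 (FBgn0010263) occupies chr2L:2954762-2968434 on the plus strand, is 13673 bp long and has 9 transcripts from 3 TSSs, at 2954762, 2956911 and 2959147. Its 3′ end overlaps by 142 bp that of Ts, which encodes thymidylate synthase on the opposite strand. Beyond Ts follow Rrp1, which encodes a DNA repair endonuclease, and gammaTub23C, which encodes a gamma-tubulin of the microtubule organising centres.

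The strongest pooled call at Rbp9, chr2L:2966918-2967357 with its summit at 2967138, was in the 3′ UTR, 12376 bp downstream of the first TSS. Its pooled signal of 82.4 took rank 1730, 259 places after the end of the optimal list. Replicate signals were 25.97, 38.2 and 19.0 in replicates 1, 2 and 3, at ranks 2699, 1451 and 4801. Only replicate 2 placed this call among its 1471 strongest. Relative signals were 0.552, 0.798 and 0.576, a mean of 0.642 ± 0.136 (SD, n = 3).

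The next calls of the Rbp9 window were at the promoters of its neighbours. The call at 2972820, 71 bp upstream of the gammaTub23C TSS and 4386 bp past the end of Rbp9, had a pooled signal of 73.5 (rank 2270). Its replicate signals were 28.1, 27.6 and 13.8, a relative signal of 0.531 ± 0.0997 (SD, n = 3), with replicate 3 the lowest. Rrp1, on the minus strand, has its 5′ end at 2972508, also within 500 bp of this summit. The call at 2969773, 135 bp upstream of the Ts TSS, had a pooled signal of 64.6 (rank 3081). Its relative signal of 0.452 ± 0.0513 (SD, n = 3) had the narrowest spread of these calls. In replicate 1 the call at gammaTub23C was the strongest of the window, and in the other replicates the call in the 3′ UTR was. The other 7 pooled calls had signals of 27.4 to 46.1, and none was matched in all 3 replicates. No TSS of Rbp9 itself had a pooled call within 1 kb. The nearest pooled calls were 3854 bp upstream of the first TSS, in a coding exon of lilli, 4876 bp downstream of the second and 2640 bp downstream of the most downstream one. In replicate 2 alone a weak call (13.2, rank 25200) lay 140 bp upstream of the most downstream TSS.

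**Figure D2:**
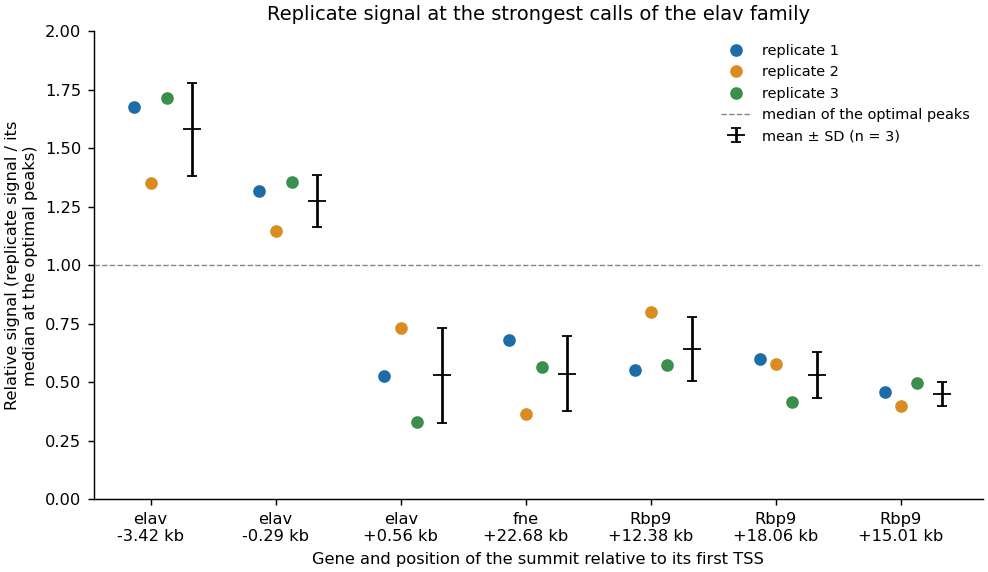
Relative signal (replicate signal divided by that replicate's median at the optimal peaks, no unit) at the 7 calls of the family that belong to the 5000 strongest pooled calls, with a point for each replicate and the mean ± SD (n = 3) beside them. The points of both optimal elav peaks lie above 1 in all 3 replicates (1.15 to 1.71), and those of the other 5 calls lie below it (0.329 to 0.798).

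Within the family the order of the strongest calls was clear only at its top. In each of the 3 replicates the strongest elav call exceeded the strongest calls of fne and of Rbp9, at 78.9, 64.7 and 56.7 against 32.1, 19.4 and 18.7 at fne and 28.1, 38.2 and 19.0 at Rbp9. The strongest fne and Rbp9 calls changed places, with fne higher in replicate 1 and Rbp9 higher in replicates 2 and 3. Their relative signals at the strongest pooled call overlapped, at 0.363 to 0.682 for fne and 0.552 to 0.798 for Rbp9, and did not differ beyond their spread.

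By the 200 bp match, agreement between the lists was highest at elav, an order that rests on that distance. Of its 9 pooled calls 5 (55.6%) were matched in all 3 replicates, of the 10 at Rbp9 3 (30%) and of the 5 at fne 1 (20%), beside 6174 (20.6%) of all 30000 pooled calls. The elav count includes the pair of calls at 522665 and 522864 that share replicate calls. Their replicate summits were up to 159 and 169 bp away. It also includes the call at 518096, whose replicate summits were 127, 199 and 154 bp away. The replicate summits of the 3 Rbp9 calls were at most 53 bp away. Replicates 1, 2 and 3 had 7, 7 and 12 calls at elav, 6, 6 and 8 at fne, and 10, 8 and 9 at Rbp9. Among these, 7 at elav, 11 at fne and 9 at Rbp9 had no pooled call within 200 bp. Of the calls without a pooled call, 1, 2 and 0 lay within 200 bp of a call in another replicate. The share over all replicate calls was not computed, so nothing is read from these counts.

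By the signal of its strongest call, elav ranked near the top of all genes, and fne and Rbp9 ranked lower. The members were chosen with these signals known, so the places only describe them. The strongest pooled call of elav took place 527 among the 13945 genes, above 96.2% of them, and above 94.1% of the 1070 genes whose windows were of like length. That of Rbp9 (place 3511) was above 74.8% of all genes and 67.6% of 1096 genes of like length. That of fne (place 4767) was above 65.8% of all genes and 46.0% of 428 genes of like length. The median over all genes was 53.6 (quartiles 37.6 and 82.6). Per 10 kb of window, elav had 3.75 pooled calls, fne 1.16 and Rbp9 4.22, against a median of 2.83 over all genes (quartiles 1.62 and 4.43), so fne lay below the lower quartile and the others above the median.

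The share of all genes with each kind of call is given beside the members' counts, from which nothing is read since the same calls chose the members. The 1 member with an optimal summit in its gene body or within 5 kb was elav, as for 22.2% of all protein-coding genes. No member had an optimal summit in its gene body, against 5.42% of genes. An optimal summit within 1 kb of a TSS was found at elav alone, against 8.73% of genes. At least 2 optimal summits in the window were again found only at elav, against 4.75% of genes, and so was an optimal summit matched in the 1471 strongest calls of all 3 replicates, against 11.1% of genes. All 3 members had a call among the 5000 strongest pooled calls, but so had 50% of all genes. A relaxed pooled call within 1 kb of a TSS was present at elav and fne, as at 60% of genes, and all 3 members had a relaxed pooled call in the window, as did 91.4% of genes. A count of 1 in 3 genes carries little precision, and the share of genes with an optimal summit grew with the window, from 19.5% at 10 to 15 kb to 42.6% at 50 kb or more.

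Distance to the nearest optimal peak separated the 3 genes widely. From the gene body it was 291 bp for elav, 8611 bp for Rbp9 and 162955 bp for fne, and the median over all genes was 22328 bp. The peak nearest to Rbp9 had its summit 77 bp upstream of the CG3165 TSS, with a signal of 131. For fne the distance was longer than for 95.5% of genes. On the downstream side of fne the pooled list held no call at all for 120078 bp after the one in hec, number 3 by length on X and number 17 of 29989 intervals between neighbouring pooled calls, whose median was 2082 bp. That stretch held 8 protein-coding genes, no optimal call, and 3, 0 and 1 calls of replicates 1, 2 and 3. The list does not say how much of it could be mapped.

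The window limit of 5 kb left near neighbours on either side. Just inside it were the elav call at 527887 (4661 bp from the gene, signal 33.4) and the Rbp9 call at 2972820 (4386 bp, 73.5). Just outside it were a call 5836 bp from elav with a signal of 31.2, a call 7104 bp from fne with 42.1, and the optimal peak 8611 bp from Rbp9.

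**Figure D3:**
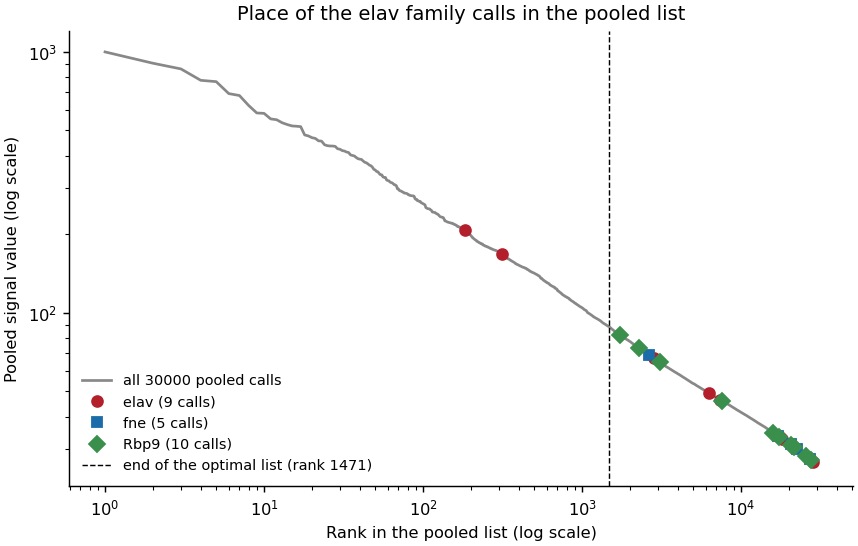
Pooled signal value against rank in the pooled list, both on log scales, with the grey line for all 30000 calls and a symbol for each of the 9 elav, 5 fne and 10 Rbp9 calls. The 2 optimal elav calls stand at ranks 183 and 312, left of the end of the optimal list at rank 1471, and the strongest Rbp9 and fne calls stand right of it at ranks 1730 and 2642.

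By relative signal over the 3 replicates, the optimal peaks most like the upstream elav peak were those nearest to the TSSs of CG32767, CG10413 and HmgZ, at Euclidean distances of 0.17, 0.18 and 0.19 on the log2 scale, where the median over all optimal peaks was 1.52. The optimal peaks most like the fne call were nearest to the TSSs of CG13365, trx and CG9393 (0.37, 0.41 and 0.46, median 1.81). Those most like the Rbp9 call were nearest to the TSSs of Zasp52, Alp13 and CG7255 (0.05, 0.12 and 0.13, median 1.32). This likeness covers 3 values a peak.

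The words capitalised above were searched on both strands within 50 bp of each summit on either side, and in windows of the same length around 19252 TSSs of protein-coding genes. The word TATCGATA is the DNA replication-related element, and TATCGA is its part. GGTCACAC is core promoter Motif 1, AGGTGGCG comes from the motif of CTCF, and CAGGTAG is the word of the early activator Zelda. GAGAG is the word of the Trl protein, CAGGTG is an E-box, TATAAA is the core promoter box of that name, and ATTTAA was added from earlier work on these data. The last was a group of 4 words, CCACCAAA or CCACTAAA or CTACCAAA or CTACTAAA. TATCGA is found wherever TATCGATA is, and other words can overlap. The words were chosen with earlier results of these data known, and the TSS windows were not matched for A and T content. The shares are therefore described and not tested. Matches to ATTTAA were in 22.1% of the optimal windows and in 11.6% of the TSS windows, and the 4-word group was in 5.03% and 1.30%. GAGAG was in 11.7% and 12.7%, TATAAA in 13.0% and 15.5%, TATCGA in 11.1% and 13.8%, and TATCGATA in 3.33% and 4.48%. CAGGTG was in 3.94% and 3.52%, GGTCACAC in 1.22% and 4.68%, CAGGTAG in 0.952% and 0.483%, and AGGTGGCG in 0.884% and 0.197%.

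At the upstream elav peak ATTTAA was matched on the other strand at 2 overlapping positions, starting 5 bp before the summit and at it, within the run of 11 capitals in the sequence printed above. The promoter-proximal elav peak held none of the words within 50 bp of its summit, and its GAGAG matches began 96 and 94 bp before the summit. The relaxed elav call at 522665 held GAGAG at 3 positions (27 and 17 bp before and 10 bp after the summit). The fne call held none of them. The Rbp9 call in the 3′ UTR held GAGAG, the call at the Ts promoter held ATTTAA, and the call at the gammaTub23C promoter held ATTTAA as well as TATAAA and AGGTGGCG, both on the other strand. A missing word says only that these letters are not in the window. The optimal elav windows were 66.3% (upstream) and 68.3% (proximal) A and T, the fne window 60.4% and the Rbp9 window in the 3′ UTR 51.5%, beside a median of 60.4% over the optimal windows (quartiles 53.5% and 68.3%).

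Other genes were described through 5 lists with 56 genes in all, each matched in the annotation. Of these, 22 (39.3%, 95% exact Clopper-Pearson interval 26.5 to 53.2%) had an optimal summit in the gene body or within 5 kb, beside 22.2% of all protein-coding genes. With only optimal peaks matched in the top calls of both other replicates, the 22 genes became 11 without replicate 1, 15 without replicate 2 and 15 without replicate 3, beside 12.7%, 13.8% and 13.5% of all genes. Matching in all 3 replicates left 11 genes, beside 11.1% of all genes. The median window of these genes was 29053 bp, against 12166 bp over all genes. Longer windows held optimal summits more often, so the counts cannot be set directly against each other. Among all genes with windows of 25000 to 50000 bp, the range that holds the listed median, the share was 32.7%. The lists were also chosen with earlier results of these data known, so the intervals are no test against the share of all genes. They cover counting error only.

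Of 14 genes whose transcripts are known ELAV targets or candidates, 6 had an optimal summit (42.9%, 17.7 to 71.1%). The strongest was at gish, which encodes a casein kinase 1, with a pooled signal of 425 at 173 bp upstream of its TSS. Its relative signal was 3.27 ± 0.393 (SD, n = 3). It was followed by brat, which encodes a translational repressor that restrains neuroblast growth (180 in an intron, relative signal 1.38 ± 0.135, n = 3), and by imd, an adaptor of the innate immune pathway (149 at its promoter, 1.11 ± 0.124, n = 3). AGO1, the Argonaute of the microRNA pathway, had a peak of 118 that was nearer to the TSS of CG33155. The others were nej and shep. Among those without an optimal summit were ewg, Nrg and arm, the classical targets of ELAV in neurons.

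Of 10 genes for proteins with related RNA recognition motifs, 4 had an optimal summit (40%, 12.2 to 73.8%), namely Rbp6 (137), pAbp (131), bru2 (127) and Rox8 (124). The peak was in an intron of bru2 itself, and nearest to the TSSs of Afg3l2, CG5742 and Pisd at Rbp6, pAbp and Rox8. Sxl and ssx, the closest relatives of the family in this list, had none.

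Of 10 further RNA-binding regulators with roles in the nervous system, 7 had an optimal summit (70%, 34.8 to 93.3%). The 4 of highest signal were qkr58E-1 (292, nearest to the TSS of mRpS29), mub (216, in an intron 982 bp downstream of its TSS), Hrb27C (171, in an intron) and heph (140, in an intron). Relative signals at these peaks were 2.41 ± 0.203, 1.74 ± 0.201, 1.38 ± 0.0736 and 1.11 ± 0.496 in that order (SD, n = 3 each). The peak at heph varied the most between replicates and the one at Hrb27C the least. Imp, cpo and ps were the other 3, with signals of 124, 104 and 89.1.

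Of 12 pan-neuronal genes, 3 had an optimal summit (25%, 5.49 to 57.2%). They were Appl (207), through the same peak as elav, nSyb (111), which encodes the neuronal synaptobrevin and whose peak was nearest to the TSS of Bgb, and para (98.4), which encodes a sodium channel and whose peak was in an intron, 35644 bp from the nearest coding TSS, that of eIF4H1. Of 10 neuroblast genes, 2 had one (20%, 2.52 to 55.6%), insc (208, in an intron, with the nearest coding TSS, that of sktl, 2020 bp away) and pros (133, in a 3′ UTR, with the nearest coding TSS, that of mRpL40, 14885 bp away). Counted by the 5000 strongest pooled calls, 40 of the 56 genes had a call. The split was 11 of 14, 8 of 10, 9 of 10, 6 of 12 and 6 of 10 over the lists in the order given. Of all protein-coding genes 50% had such a call, with a median window shorter than that of the listed genes.

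**Figure D4:**
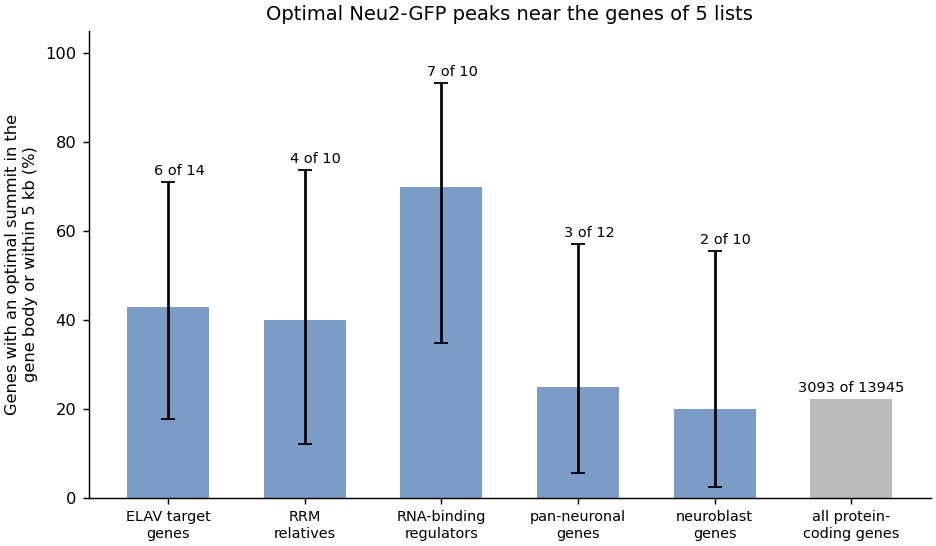
Percentage of genes with an optimal summit in the gene body or within 5 kb in the 5 lists (blue, with 95% exact Clopper-Pearson intervals for counting error) and among all 13945 protein-coding genes (grey). The share runs from 20% of the neuroblast genes to 70% of the RNA-binding regulators, beside 22.2% of all genes, and window lengths differ between the bars. The lists were chosen with earlier results of these data known.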

How the data were processed

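Whole-embryo Neu2-GFP ChIP-seq of 3 libraries, labelled as biological replicates, was analysed from the dm6 peak lists. Per the labels, dm6 and dm3 lists were made; the dm3 lists were not used here, and the aligner, the caller, their versions and the IDR threshold are not given in the sources used here. The signal value of each call was used as the authors deposited it, to describe and rank calls within a list. The −log10 q-value that the authors deposited was read but not used for any result. The summit offset, another value the authors deposited, gave each summit position (1-based). Library depth is unknown, as no list gives reads.

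Genes and TSSs came from the Ensembl release 115 annotation (BDGP 6.54) and sequences from the RefSeq Release 6 genome, on 6 main arms (a few relaxed calls lie elsewhere). Coordinates were not converted between builds. A replicate call matched when its summit was within 200 bp, taking the strongest, and "top" calls were the 1471 strongest. A promoter reached 500 bp from a protein-coding TSS. Tools were Python 3.11.15, numpy 2.4.6, pandas 2.3.3, scipy 1.17.1 and matplotlib 3.10.9. The counting of summits in gene windows and their matching were checked on simulated summits, and the other steps were not.

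The members, gene lists and words were chosen with earlier results of these data known. Named were the calls of the members among the 5000 strongest pooled calls, the strongest call per replicate, the genes with the nearest TSS, the 3 optimal peaks most alike per member, and up to 4 genes per list by signal. Genes and calls named beyond this rule were chosen after their values were seen. With 1 group of samples, no test was made. Alternatives were other flanks, matching distances, numbers of calls, scalings and word windows, and leaving out each replicate.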

Additional observations from a re-analysis of the deposited data

How the results depend on the processing

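Of 71 alternative values, 45 stayed within tolerance and 26 did not, the tolerance being 1.5 times for counts, 1 SD over replicates for relative signals and the exact 95% interval for shares. No paired analysis was possible because there was 1 group of samples. The count of family genes with an optimal summit was 0 with the gene body only and 2 with a flank of 10 kb, which adds Rbp9, and was 1 under every other alternative run, including leaving out each replicate (1 to 1). The share of all genes with an optimal summit was 5.42% with the gene body only, 14.8% with a flank of 2 kb, 32.3% with 10 kb, 8.73% within 1 kb of a TSS, 13.0% with the stronger 50% of the optimal list, 11.1% with peaks matched in all 3 replicates, and 12.7 to 13.8% with a replicate left out. For the 56 listed genes the count was 14 with the gene body only, 11 with peaks matched in all 3 replicates, and 11 to 15 with a replicate left out, against 22. Within the gene body elav had 5 pooled calls and Rbp9 5. Among the 5000 strongest pooled calls elav had 3, fne 1 and Rbp9 3. The calls of the family in all 3 replicates numbered 9 when all relaxed calls counted, and 2 to 2 with a replicate left out. Divided by the median of all calls of a replicate, the relative signal was 4.58 at elav, 1.58 at fne and 1.85 at Rbp9, and the order of fne and Rbp9 stayed within their spread. With a replicate left out it was 1.51 to 1.69 at elav, 0.465 to 0.624 at fne and 0.564 to 0.687 at Rbp9. Windows reaching 150 bp to either side gave 2 words at the optimal elav summits in place of 1, and ATTTAA in 46.2% of optimal windows, beside 40.3% of TSS windows of that length. Windows reaching 50 bp held it at 22.1% of optimal summits, against 11.6% of TSSs, so the contrast was smaller in the wider windows. Unknown depth and 3 replicates limit all values, and the relaxed lists hold background calls.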
